A study of Mus musculus with 16 samples.

Results

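The 7 genes described here, Ms4a1, Cd79a, Cd79b, Cd22, Blk, Pou2af1 and Il21r, encode the B cell receptor and proteins of mature B cells. They were chosen by name, with their levels in these mice already known to be lower at D7 in Trem2-/- than in WT joints, and they are 7 of the 13733 genes measured. RNA was sequenced in bulk from cells of the right knee joints of 16 C57BL/6 mice in 4 groups of 4 mice. WT D0 mice were uninjured wildtype mice, and WT D7 mice were wildtype mice taken 7 days after anterior cruciate ligament injury. Trem2-/- D0 and Trem2-/- D7 mice were the matching groups of Trem2 KO mice, which carry the em2Adiuj allele bought from the Jackson Laboratory. Injury was made by a single tibial compressive overload at 10 weeks of age. The knockout is carried in the germline and is not limited to the myeloid cells that normally make TREM2. The sample labels also hold text that does not match this design, namely an age of 16 weeks and homogenized joints of control and T1DM mice, whereas the study's methods describe cells released by enzymes. Neither source says whether CD45+ cells were enriched for these libraries.

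B cells read antigen through a membrane immunoglobulin that cannot signal by itself. Its signal passes through the paired chains Ig-alpha and Ig-beta, encoded by Cd79a and Cd79b, which Src-family kinases such as BLK phosphorylate to recruit further kinases and adaptors. CD22 is a sialic acid binding co-receptor that recruits phosphatases and dampens this signal, and CD20, encoded by Ms4a1, is a membrane protein of B cells from the pre-B stage until plasma cell differentiation. The coactivator OCA-B, encoded by Pou2af1, binds octamer transcription factors on immunoglobulin promoters, and the IL-21 receptor, encoded by Il21r, receives a cytokine of helper T cells and is found on B, T and NK cells. In a mouse knee the bone marrow next to the joint holds B cells at many stages, and synovium holds few. The study describes its cell release as optimized to leave out immune cells of the marrow. In its single-cell data on CD45+ cells, B cells were seen in the joint and their proportion was higher by D7. That is a proportion of cells, not the bulk RNA levels given here.

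In the GENCODE annotation of build GRCm38, 3 members lie on chromosome 7, namely Cd79a at 24897381-24902197, Cd22 at 30865402-30880342 and Il21r at 125603429-125633570. Ms4a1 lies at 11249675-11266241 of chromosome 19, Cd79b at 106311341-106314762 of chromosome 11, Blk at 63372836-63417037 of chromosome 14 and Pou2af1 at 51213708-51240080 of chromosome 9. Ms4a1, Cd79b, Cd22 and Blk are on the minus strand and the others on the plus strand. Exons of Cd22 overlap Gm29439 on the opposite strand, and no source used here states how reads were assigned by strand. Of the 1383 stretches of 75 bases in Cd79a transcripts, 62 (4.48%) are shared with Gm32220, so a small part of its reads could be assigned either way, and the other members share 0 such stretches with another gene.

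RefSeq promoter sequences (GRCm38.p6) were found for 4 of the 7 members. Those of the receptor chain Cd79a, the coactivator Pou2af1 and the cytokine receptor Il21r are printed, without bases inside the gene as annotated by GENCODE. The searched bases of Cd22, the other one found, lie inside the annotated gene, so none is printed. The capitals mark matches to an E-box (CAGGTG), the core of the octamer (TGCAAAT) and the first bases of a cAMP response element (TGACGT), motifs that were chosen after the sequences had been seen.
Cd79a promoter, plus strand, chr7:24897247-24897380: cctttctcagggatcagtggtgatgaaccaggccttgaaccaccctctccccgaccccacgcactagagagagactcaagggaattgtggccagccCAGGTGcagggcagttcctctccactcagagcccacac
Pou2af1 promoter, plus strand, chr9:51213440-51213689: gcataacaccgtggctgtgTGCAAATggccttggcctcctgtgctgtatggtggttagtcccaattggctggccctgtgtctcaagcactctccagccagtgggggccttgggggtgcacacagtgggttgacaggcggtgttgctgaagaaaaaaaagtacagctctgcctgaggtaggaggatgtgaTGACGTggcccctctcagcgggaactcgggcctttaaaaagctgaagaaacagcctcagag
Il21r promoter, plus strand, chr7:125603179-125603428: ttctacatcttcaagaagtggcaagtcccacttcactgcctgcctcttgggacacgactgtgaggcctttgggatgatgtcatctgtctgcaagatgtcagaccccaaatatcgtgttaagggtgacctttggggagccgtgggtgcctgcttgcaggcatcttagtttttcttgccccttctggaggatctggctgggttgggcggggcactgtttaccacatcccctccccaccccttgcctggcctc

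The 250 bases before the RefSeq start were searched on both strands for 6 motifs. The other 3 were the full octamer ATGCAAAT, of which the octamer core is a part, an Ets motif (AGGAAGT) and the palindrome of the factor EBF1 (a TCCC and a GGGA with any pair of bases between them). Cd79a held CAGGTG at 154 to 149 bases before its start, which 17.2% of 32851 promoter windows also held. It also held AGGAAGT at 55 to 49 bases, which 7.69% held. That match lies inside the gene as annotated by GENCODE, so it is outside the printed stretch. Pou2af1 held TGCAAAT at 231 to 225 bases (3.56% of windows) and TGACGT at 61 to 56 bases (6.47%). Cd22 held the EBF1 palindrome at 49 to 40 bases (0.779% of windows) and the E-box on the reverse strand at 245 to 240 bases. Both lie inside the Cd22 gene as annotated by GENCODE. The full octamer, held by 1.60% of windows, was in none of the 4 promoters, and Il21r held none of the 6 motifs. These matches describe letters in the windows and were not tested as binding sites.

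Libraries held 11567073 to 32867818 reads assigned to genes (median 16399898), and values are given as CPM, the authors' read counts relative to library size after TMM scaling. A count of 3 reads corresponded to 0.101 to 0.250 CPM, and the lowest member count in any library was 38 reads, for Blk, so all 7 members passed the filter on low values. Trem2 itself ranged from 10.7 to 22.5 CPM in WT D7 and from 3.42 to 4.84 CPM in Trem2-/- D7 mice, without overlap. At D0 it ranged from 2.51 to 5.61 CPM in WT and from 0.948 to 2.68 CPM in Trem2-/- mice, so the highest Trem2-/- mouse was above the lowest WT mouse. Immunoglobulin genes such as Ighm and Igkc are not among the 13733 genes with values, so they were not analysed here. The labels do not say how the 4 mice of a group were housed or bred, and p-values measure the spread between these libraries.

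The members were expressed at unequal levels, and Cd79a was the highest in all 4 groups when levels were divided by merged exon length. In WT D0 mice, Cd79a stood at 50.02 ± 20.2 CPM per kb (SD, n = 4), Cd79b at 31.1 ± 10.96, Pou2af1 at 21.9 ± 7.46, Blk at 8.24 ± 2.64, Il21r at 5.84 ± 1.94, Ms4a1 at 3.21 ± 0.981 and Cd22 at 2.95 ± 1.23 CPM per kb. Each of the first 5 was above the next in 4 of 4 mice, while Ms4a1 was above Cd22 in 2 of 4. In Trem2-/- D0 mice, Il21r and Blk were not separated, with Il21r higher in 2 of 4 mice. At D7, Pou2af1 stood second, above Cd79b in 4 of 4 Trem2-/- mice but in 2 of 4 WT mice, at 4.76 ± 1.01 against 4.16 ± 0.940 CPM per kb in the former. Il21r stood above Blk at D7 in 4 of 4 WT and 4 of 4 Trem2-/- mice, the reverse of WT D0, and Cd22 stood above Ms4a1 in 4 of 4 Trem2-/- D7 mice. The level of Cd79a over that of Cd79b, the 2 chains of the signaling dimer, was 1.59 ± 0.136 in WT D0, 1.73 ± 0.194 in WT D7, 1.78 ± 0.261 in Trem2-/- D0 and 1.83 ± 0.144 in Trem2-/- D7 mice when both were taken per kb, and the ranges of all 4 groups overlapped.

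**Figure D1:**
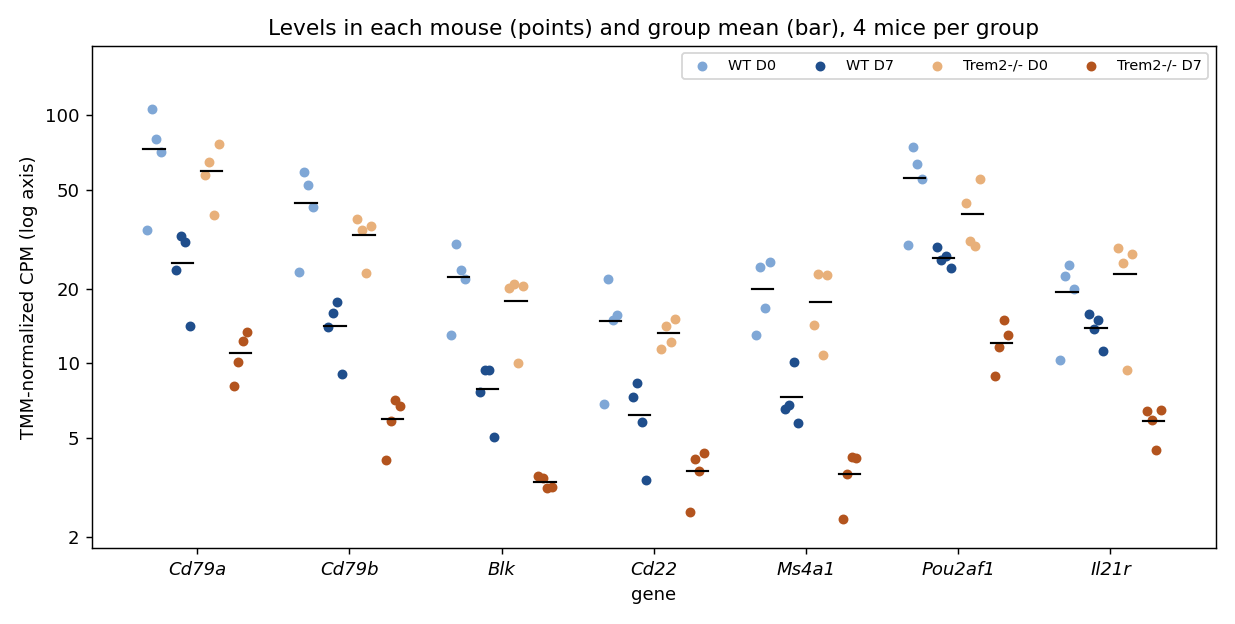
Level of each member (TMM-normalized CPM, log axis) in the 16 mice by group, where points are mice and bars the group mean. All 4 Trem2-/- D7 mice lie below all WT D7 mice for 6 of the 7 members, where 4.78% of all genes do so. Cd22 is the member whose D7 groups overlap. The members were chosen with this D7 difference known, so nothing is read from it.

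The first comparison asked how injury changed the members in WT joints. Of the 7 members, 6 fell and Il21r did not pass the test, where a gene was called at an unadjusted p under 0.05 and a level over 25% higher in one group than in the other in limma. The 6 also passed an adjusted p under 0.05 (Benjamini-Hochberg over 13173 genes). Among all genes tested, 18.2% were called lower under the first rule and 12.6% were lower under the second. The median log2 fold change was -1.31 over the members and -0.04 over all genes. The WT D7 mice of this comparison also entered the genotype comparison at D7 with which the members were chosen. In bulk RNA a value is a share of the library. Fewer B cells, less RNA per B cell and more RNA of other cells cannot be told apart, here and in the results that follow.

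Of the receptor chains, Cd79b fell most in WT joints. It stood at 23.2, 59.3, 52.5 and 42.7 CPM in the WT D0 mice (44.4 ± 15.7, SD, n = 4) and at 14.1, 16.0, 17.7 and 9.03 CPM in the WT D7 mice (14.2 ± 3.74). Its log2 fold change was -1.54 ± 0.27 (SE), with an adjusted p of 0.00158 in limma. All WT D7 mice were below all WT D0 mice, and the first WT D0 mouse was the lowest of its group. Cd79a stood at 34.4, 106, 80.1 and 71.4 CPM at D0 (72.9 ± 29.5) and at 23.7, 32.5, 30.8 and 14.2 CPM at D7 (25.3 ± 8.33), a log2 fold change of -1.45 ± 0.31 (adjusted p = 0.00488). The same mouse was lowest at D0, about 2 CPM above the highest WT D7 mouse.

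The kinase gene Blk stood at 13.0, 30.3, 23.8 and 21.8 CPM in WT D0 mice (22.2 ± 7.13) and at 7.66, 9.40, 9.41 and 5.05 CPM in WT D7 mice (7.88 ± 2.06), and fell by 1.36 ± 0.26 on the log2 scale (adjusted p = 0.00239). The groups did not overlap, and the fourth WT D7 mouse was the lowest. The inhibitory co-receptor gene Cd22 stood at 6.87, 21.9, 14.9 and 15.7 CPM at D0 (14.9 ± 6.18) and at 7.31, 8.33, 5.83 and 3.39 CPM at D7 (6.21 ± 2.15). It fell by 1.09 ± 0.28 (adjusted p = 0.0122), although the first WT D0 mouse lay below 2 of the 4 WT D7 mice. Ms4a1, which encodes CD20, stood at 13.0, 24.4, 16.6 and 25.5 CPM at D0 (19.9 ± 6.07) and at 6.55, 6.80, 10.2 and 5.76 CPM at D7 (7.32 ± 1.95). Its log2 fold change was -1.31 ± 0.26 (adjusted p = 0.00325), and its groups were apart.

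The coactivator gene Pou2af1 fell less far in WT joints. It stood at 29.9, 74.4, 63.8 and 55.2 CPM at D0 (55.8 ± 19.01) and at 29.5, 26.0, 27.1 and 24.2 CPM at D7 (26.7 ± 2.19), a log2 fold change of -0.97 ± 0.25 (adjusted p = 0.0118). The groups were apart by less than 1 CPM, since the first WT D0 mouse was close to the WT D7 mice. Il21r stood at 10.3, 22.5, 24.98 and 19.9 CPM at D0 (19.4 ± 6.44) and at 15.9, 13.7, 14.99 and 11.2 CPM at D7 (13.9 ± 2.05). Its log2 fold change was -0.39 with a 95% interval from -1.05 to 0.26 (adjusted p = 0.338 in limma), and all 4 WT D7 mice lay between the first WT D0 mouse and the others. Without that mouse, the log2 fold change of Il21r was -0.66 and 7 of 7 members were called. That fit called 5764 of 13173 genes, higher or lower. The groups did not overlap for 5 of the 7 members, against 9.34% of all genes that were lower without overlap.

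The second comparison asked the same of Trem2-/- joints, where all 7 members fell. All 7 were called under both rules, against 27.9% of all genes called lower by unadjusted p and fold change and 27.2% by adjusted p, and the median log2 fold change was -1.99 over the members and -0.04 over all genes. No Trem2-/- D7 mouse reached the lowest Trem2-/- D0 mouse for any member, against 26.3% of all genes. The Trem2-/- D7 mice were likewise among those with which the members were chosen.

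Cd79a stood at 57.3, 64.6, 39.8 and 76.4 CPM in Trem2-/- D0 mice (59.5 ± 15.3) and at 8.13, 10.1, 12.3 and 13.4 CPM in Trem2-/- D7 mice (11.002 ± 2.35). This was the lowest log2 fold change of the members, -2.32 ± 0.31 (SE; adjusted p = 4.68e-05 in limma). Cd79b stood at 38.0, 34.4, 23.1 and 35.8 CPM at D0 (32.8 ± 6.67) and at 4.10, 5.86, 7.11 and 6.76 CPM at D7 (5.96 ± 1.35), a log2 fold change of -2.28 ± 0.27 (adjusted p = 2.19e-05). For both chains the third Trem2-/- D0 mouse was the lowest of its group and was still well above all D7 mice.

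Blk stood at 20.1, 20.8, 10.1 and 20.5 CPM in Trem2-/- D0 mice (17.9 ± 5.22) and at 3.53, 3.45, 3.14 and 3.17 CPM in Trem2-/- D7 mice (3.32 ± 0.196), and fell by 2.08 ± 0.26 on the log2 scale (adjusted p = 2.72e-05). Its 4 D7 mice were nearly equal, and the third D0 mouse stood apart from the other D0 mice. Cd22 stood at 11.4, 14.2, 12.2 and 15.1 CPM at D0 (13.2 ± 1.71) and at 2.52, 4.13, 3.70 and 4.34 CPM at D7 (3.67 ± 0.813), a log2 fold change of -1.62 ± 0.28 (adjusted p = 0.000295). Ms4a1 stood at 14.2, 22.9, 10.8 and 22.6 CPM at D0 (17.7 ± 6.09) and at 2.35, 3.58, 4.1995 and 4.17 CPM at D7 (3.58 ± 0.864), a log2 fold change of -1.99 ± 0.26 (adjusted p = 3.91e-05). In both genes the D7 mice lay in a narrow band under all D0 mice.

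Pou2af1 stood at 44.2, 31.2, 29.6 and 55.2 CPM in Trem2-/- D0 mice (40.04 ± 12.04) and at 8.87, 11.6, 15.01 and 13.0 CPM in Trem2-/- D7 mice (12.1 ± 2.58), a log2 fold change of -1.62 ± 0.25 (adjusted p = 0.000108). Il21r stood at 29.0, 25.3, 9.42 and 27.6 CPM at D0 (22.8 ± 9.07) and at 6.42, 5.93, 4.48 and 6.51 CPM at D7 (5.83 ± 0.937), a log2 fold change of -1.70 ± 0.31 (adjusted p = 0.000358). The third Trem2-/- D0 mouse was low for Il21r too, and stood less than 3 CPM above the highest D7 mouse.

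**Figure D2:**
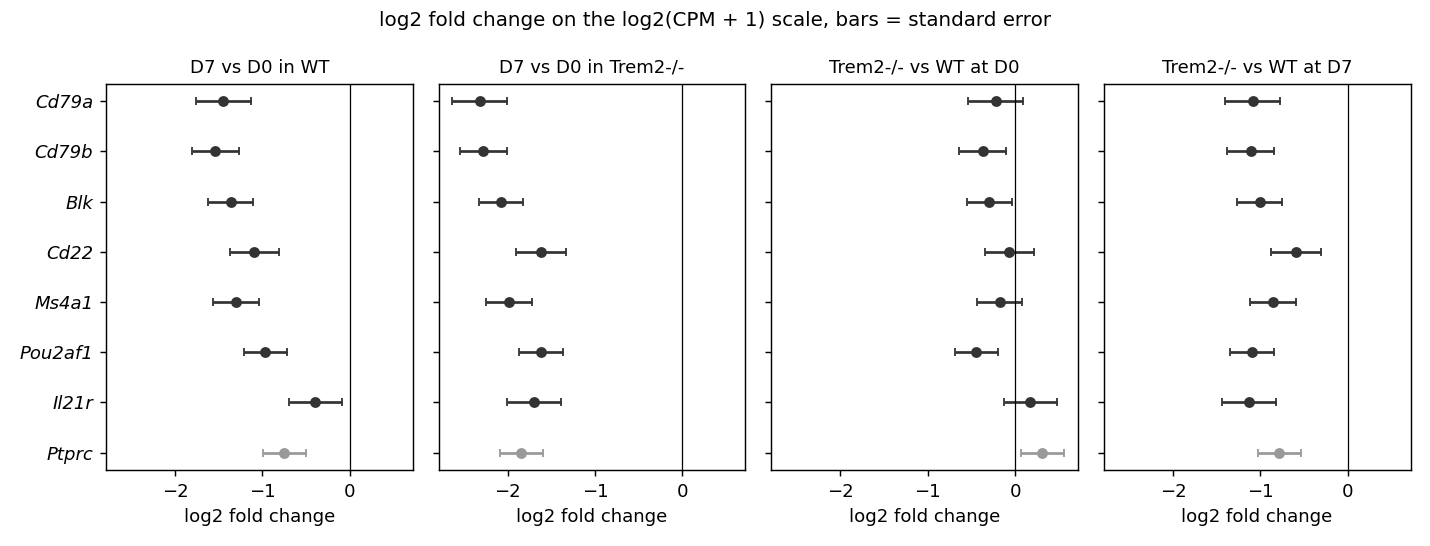
Log2 fold change of the 7 members and Ptprc on the log2(CPM + 1) scale in the 4 comparisons, with bars for the standard error and a line at 0. Members lie from -1.54 to -0.39 for injury in WT, from -2.32 to -1.62 for injury in Trem2-/-, from -0.44 to 0.18 for genotype at D0 and from -1.13 to -0.59 for genotype at D7.

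The genotype comparison at D0 used mice outside the D7 comparison that was known when the members were chosen, and no member was called in it. Its spread was estimated in the fit of all 4 groups, which holds the D7 mice. In limma 0 of 7 members had an unadjusted p under 0.05, and edgeR and voom also called 0. Among all genes, 1.37% were called lower by unadjusted p and fold change, and by adjusted p limma, edgeR and voom called 0 of 13173. The median log2 fold change of the members was -0.22. The intervals were wide. The difference for Pou2af1 was -0.44 with a 95% interval from -0.97 to 0.09 in limma, and that for Cd79b was -0.37 with an interval from -0.94 to 0.20. The interval ran from -0.89 to 0.45 for Cd79a, from -0.84 to 0.25 for Blk, from -0.73 to 0.38 for Ms4a1 and from -0.67 to 0.54 for Cd22. Il21r had the positive difference, 0.18 with an interval from -0.48 to 0.83. Levels of the groups overlapped for every member, against 0.539% of all genes that were lower without overlap. Single mice changed these calls. Without the first WT D0 mouse, Cd79b (-0.65), Blk (-0.52) and Pou2af1 (-0.71) were called lower in Trem2-/- D0 mice. Without the third Trem2-/- D0 mouse, Il21r was called higher (0.54), and without the fourth, Pou2af1 was called lower (-0.61). In that order, these fits called 441, 239 and 542 of all 13173 genes, higher or lower.

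At D7, the members were lower in Trem2-/- than in WT joints, which was known when they were chosen, so the values and counts of members in this comparison describe that choice, and nothing is read from them. The mean in Trem2-/- D7 mice was 41.8% of that in WT D7 mice for Il21r, 42.0% for Cd79b, 42.1% for Blk, 43.5% for Cd79a, 45.5% for Pou2af1, 48.9% for Ms4a1 and 59.1% for Cd22. The log2 fold changes were -1.13 for Il21r, -1.11 for Cd79b, -1.10 for Pou2af1, -1.09 for Cd79a, -1.01 for Blk, -0.86 for Ms4a1 and -0.59 for Cd22. All 4 Trem2-/- D7 mice were below all WT D7 mice for the members other than Cd22, which is 6 of 7 (4.78% of all genes), and these 6 also met the calling rule (4.53% of all genes). Over all 13173 genes, limma and edgeR called 0 by adjusted p, voom called 1 and limma fitted to the 2 D7 groups alone called 5, while limma on all groups called 753 (5.72%) by unadjusted p and fold change. The effect of injury in Trem2-/- mice less that in WT mice was lowest for Il21r, at -1.31 ± 0.43 (SE), and lay between -0.87 and -0.53 for the other 6 members, given without a test since it contains the D7 comparison.

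In each group 1 mouse was the lowest for most members. The summed level ran from 131 to 338 CPM in WT D0 mice (median 265), from 72.8 to 116 CPM in WT D7 mice (109), from 135 to 253 CPM in Trem2-/- D0 mice (214) and from 35.9 to 51.4 CPM in Trem2-/- D7 mice (47.3). The first WT D0 mouse was the lowest of its group for 7 of 7 members, the fourth WT D7 mouse for 7 of 7, the third Trem2-/- D0 mouse for 6 of 7 and the first Trem2-/- D7 mouse for 5 of 7. The last of these was also the highest of its group for 1 member, Blk, and the third Trem2-/- D7 mouse was lowest for 2 members and highest for 3, so the members were ordered less alike in that group. The first WT D0 mouse was also the lowest of its group for Ptprc, at 358 CPM, and the third Trem2-/- D0 mouse was not low for it, at 710 CPM.

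Markers of other cells moved with the injury comparisons. Ptprc, which encodes the leukocyte surface protein CD45, stood at 514 ± 151 CPM in WT D0, 305 ± 95.7 in WT D7, 633 ± 145 in Trem2-/- D0 and 173 ± 27.3 in Trem2-/- D7 mice. Its log2 fold change with injury was -0.75 in WT (adjusted p = 0.0340 in limma) and -1.84 in Trem2-/- mice (adjusted p = 4.13e-05). Of 9 pan-leukocyte genes, 8 were called lower at D7 in WT mice, 9 in Trem2-/- mice, and 6 were called lower in Trem2-/- than in WT D7 mice. None of those 6 passed by adjusted p in limma. The summed level of these 9 genes ran from 3301 to 6612 CPM in WT D0, from 1812 to 3971 in WT D7, from 4079 to 7323 in Trem2-/- D0 and from 1415 to 1823 in Trem2-/- D7 mice. Stromal markers went the other way, from 11488 to 55692 CPM in WT D0 and from 85079 to 123152 CPM in WT D7 mice, and from 8374 to 18118 CPM in Trem2-/- D0 and from 105651 to 152775 CPM in Trem2-/- D7 mice, with 5 and 6 of 7 markers called higher. Of 11 neutrophil markers, 11 fell in each genotype, as did 5 of 5 erythroid markers (medians -1.58 in WT and -1.93 in Trem2-/- mice). Monocyte and macrophage markers rose instead, 6 of 8 in WT (median 1.66) and 5 of 8 in Trem2-/- mice (1.14), where 2 fell. T and NK cells can also express Il21r, and of 11 T cell markers 8 fell in WT and 9 in Trem2-/- mice while Thy1, which stromal cells also express, rose in both. Of 7 NK cell markers, 5 fell in WT and 7 in Trem2-/- mice. No marker in these lists was at 0 in all mice of a group, and the part of these shifts in the fall of the members was not tested.

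With injury, the members changed less relative to Ptprc than their levels did. Ptprc itself fell with injury in both genotypes, and a lower Ptprc raises the ratio of any gene, so nothing about the members is read from this. The mean log2 ratio of a member to Ptprc shifted from D0 to D7 by -0.86 for Cd79b to 0.34 for Il21r in WT mice and by -0.62 for Cd79b to 0.15 for Pou2af1 in Trem2-/- mice. For 0 of 7 members did all D7 mice have a lower ratio than all D0 mice, in either genotype, where 0.493% of all genes did in WT and 0.144% in Trem2-/- mice. Since so few genes did, nothing about the members is read from this count. At D7 the ratios in Trem2-/- less those in WT mice lay between -0.48 for Il21r and 0.07 for Cd22. At D0 the same difference was below 0 for all 7 members, from -0.77 for Pou2af1 to -0.13 for Il21r. It was farther from 0 than at D7 for the 6 members other than Il21r. Ptprc itself was 0.31 higher on the log2 scale in Trem2-/- than in WT D0 mice and was not called. A higher Ptprc lowers the ratio of any gene, and the share of all genes below 0 was not counted. At D0 the ratios differed more than the levels did for the members other than Il21r, as for Pou2af1 (-0.77 against -0.44).

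**Figure D3:**
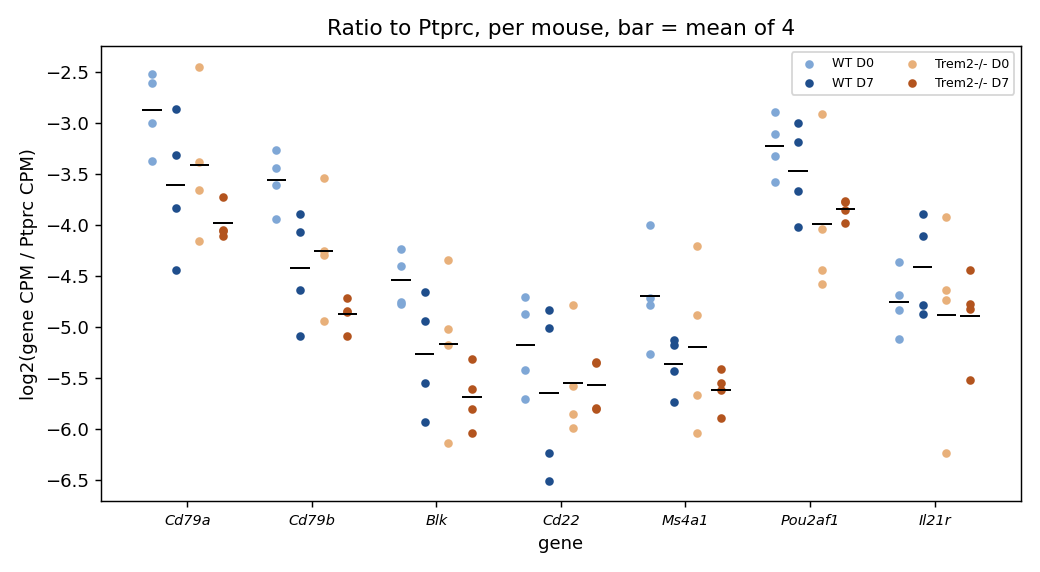
Log2 ratio of each member to Ptprc in the 16 mice, where points are mice and bars the group mean. No member has all D7 mice below all D0 mice of its genotype, which few of all genes have (0.493% in WT and 0.144% in Trem2-/- mice).

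The genes whose profiles over the 16 libraries were most like the mean profile of the members were mostly other B cell genes. Likeness was measured as the root mean square difference of log2(CPM + 1) values, each gene centred on its own mean, over 10545 genes, of which the median difference was 0.925. Rhoh, which encodes a GTPase of blood cells, was nearest at 0.156. It was followed by Fcmr, which encodes the Fc receptor for IgM (0.187), Ikzf3 (0.193), Fcrla (0.199), Irf4 (0.210), Jakmip1 (0.210), Pax5 (0.217), Spib (0.220) and H2-Ob (0.223). All points share their libraries, so these differences are a description. Among the members, Blk was closest to their mean profile (0.160) and Il21r farthest (0.374). Cd79a and Cd79b were each other's nearest gene (0.144). The nearest gene was Spib for Blk (0.185), Irf4 for Cd22 (0.197), Cecr2 for Pou2af1 (0.226), Fcmr for Ms4a1 (0.266) and Ccr7, a lymphocyte homing receptor, for Il21r (0.284).

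Other genes of the B cell receptor pathway fell with the members. Pan-leukocyte genes and neutrophil markers fell in the same injury comparisons. Whether the fall of this and the following lists was particular to B cells was not tested. Of 25 signaling genes tested, 15 were called lower and 2 higher at D7 in WT mice, with a list median of -0.52. The kinase gene Btk was among the lowest (-1.01 ± 0.22, SE). The 2 that rose were Nfatc1 (0.76) and Cd81 (0.46), which many other cells also express and which are named after their values were seen. In Trem2-/- mice 19 fell and 4 rose (median -1.03), with Themis2 (-1.96 ± 0.27) and Btk (-1.91 ± 0.22) among the lowest. The 4 that rose there were Nfatc1 (1.11), Cd81 (0.74), Fyn (0.45) and Vav2 (0.38), also named after their values were seen. At D0, 0 of the 25 were called between genotypes, and at D7 14 were called lower in Trem2-/- mice, with Prkcb (-0.89) and Bank1 (-0.80) among the lowest. None of those 14 passed by adjusted p in limma, which called 0 of all genes.

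Inhibitors of the receptor followed the same course. Of 12 tested, 8 fell in WT and 11 in Trem2-/- mice (medians -0.67 and -1.36). The lectin gene Siglecg fell in both genotypes (-1.26 ± 0.27 in WT and -2.04 ± 0.27 in Trem2-/- mice), as did the phosphatase gene Ptpn6 (-1.11 ± 0.32 and -2.20 ± 0.32). Btla was also among the lowest in WT mice (-1.23) and Dok3 in Trem2-/- mice (-2.03), where the ubiquitin ligase gene Cblb rose (0.55). At D7, 8 of the 12 were called lower in Trem2-/- than in WT mice, among them Ptpn6 (-0.79), Inpp5d (-0.74) and Siglecg (-0.69), and at D0 0 were. None of those 8 passed by adjusted p in limma, and 4.53% of all genes were called lower at D7.

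Of 16 transcription factors of the B lineage, 10 fell in WT and 10 in Trem2-/- mice (medians -0.82 and -1.16). The Ets factor gene Spib fell in both (-1.40 ± 0.28 in WT and -2.26 ± 0.28 in Trem2-/- mice), and so did Ikzf1, which encodes Ikaros (-1.16 ± 0.28 and -2.15 ± 0.28). Bcl11a stood at -1.11 ± 0.29 and -1.98 ± 0.29. Ebf1, a founding factor of the B lineage that stromal cells also express, did not follow, at 0.32 ± 0.20 in WT and 0.66 ± 0.20 in Trem2-/- mice, where it rose. It was named after its values were seen. At D7, 9 of the 16 were called lower in Trem2-/- than in WT mice, led by Spib (-1.19), Ikzf3 (-1.09) and Ikzf1 (-0.92). Of all genes, 4.53% were called lower there. At D0, Bach2 (-0.44) was called lower, as were 1.37% of all genes. None of these genes passed by adjusted p in limma.

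Earlier and later stages of the B lineage were set beside the members. Of 17 mature B cell genes tested, 12 fell in WT and 14 in Trem2-/- mice (medians -0.86 and -1.11), among them the Fc receptor like gene Fcrla (-1.42 and -2.04). Of 11 genes of pro-B and pre-B cells, 8 fell in each genotype (medians -1.37 and -1.51). Dntt, which encodes the polymerase that adds bases at antibody gene joints, fell in both (-1.54 in WT and -2.05 in Trem2-/- mice). The surrogate light chain gene Igll1 (-1.56) and Vpreb3 (-1.58) were among the lowest in WT mice, and the recombinase gene Rag1 (-2.21) and Myb (-2.23) in Trem2-/- mice. Sox4, also a gene of other cells, rose in Trem2-/- mice (0.98) and was called higher in Trem2-/- than in WT D7 mice (0.46), and is named after its values were seen. At D0, 0 mature B cell genes were called, whereas Igll1 (-0.66) and Vpreb1 (-0.57) of the early genes were called lower in Trem2-/- mice, neither of them by adjusted p. At D7, 8 mature genes were called lower in Trem2-/- than in WT mice, led by Fcrla (-0.95), as were 6 early genes, led by Rag1 (-1.46). No gene of either list passed by adjusted p there, and 4.53% of all genes were called lower.

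Plasma cell genes did not move in one direction. Of 6 tested, Jchain (-2.33 ± 0.50) and Mzb1 (-1.60 ± 0.29) fell in WT mice while Fkbp11 (1.70 ± 0.31) and Sdc1 (1.12 ± 0.31) rose. Fkbp11 encodes a chaperone of secretory cells and Sdc1 a proteoglycan, and both are made by cells other than plasma cells. In Trem2-/- mice 2 fell, Jchain (-1.57 ± 0.50) and Mzb1 (-1.47 ± 0.29, named after its values were seen), and 3 rose, namely Fkbp11 (2.82 ± 0.31), Sdc1 (1.74 ± 0.31) and Prdm1 (0.73 ± 0.15). No plasma cell gene was called between genotypes at D0 or D7. The list of IL-21 receptor signaling, which holds kinases, STAT factors and their targets, had medians of -0.12 in WT and -0.25 in Trem2-/- mice. Its counts were near the 18.2% and 27.9% of all genes called lower in WT and Trem2-/- mice. Of 10 tested, 2 fell in WT mice, among them the transcription factor gene Stat5b (-0.46 ± 0.09), and 3 fell in Trem2-/- mice, among them Bcl6 (-0.97 ± 0.17) and Stat5b (-0.69), where Prdm1 rose. Bcl6 (-0.58) was the gene of this list called lower in Trem2-/- than in WT D7 mice, though not by adjusted p.

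**Figure D4:**
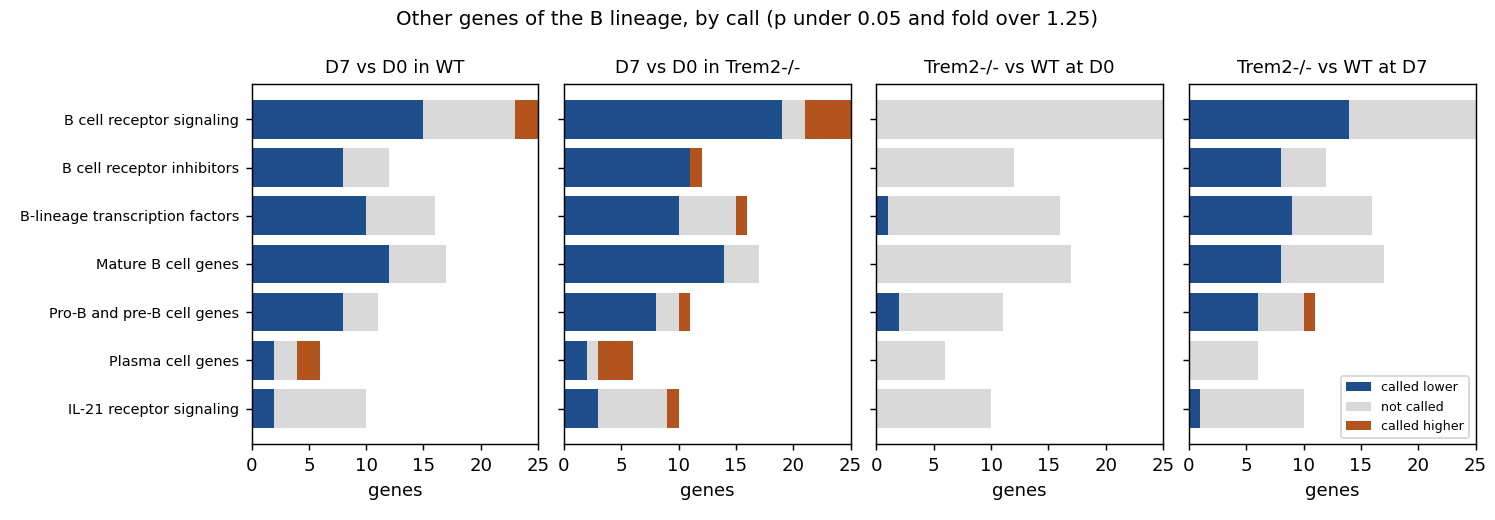
Number of genes of each B-lineage list (x axis, genes tested) that were called lower, not called or called higher in the 4 comparisons, as stacked bars without the members. Called lower genes make up most of the tested genes for receptor signaling (15 of 25 in WT and 19 of 25 in Trem2-/-), inhibitors, transcription factors, mature and early B cell genes in both injury comparisons, and 3 genes in all are called at D0.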

How the data were processed

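Poly(A)-enriched RNA from knee joint cells of 16 mice, 4 per group by genotype and injury in the labels, was sequenced. Per the study's methods and the submitters' processing notes, reads were aligned with STAR to mm10 (GRCm38) and counted with featureCounts, and edgeR computed TMM factors. Versions, annotation, strand setting and filters are not given in the sources used here. The deposited table holds a signal of 13733 genes, which are the authors' CPM, read counts relative to library size after TMM scaling. Each value was a whole number of reads in 100% of values (within 0.02 reads). One symbol listed 2 times with identical values was counted once.

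Values were tested as log2(CPM + 1) in R 4.3.3 by limma 3.58.1, whose eBayes step used a mean-variance trend. The 13173 genes reaching 1 CPM in 4 or more libraries were tested, and all 4 groups entered 1 fit. Tests were two-sided. A gene was called at an unadjusted p under 0.05 and a level over 25% higher in one group, the study's rule, and Benjamini-Hochberg adjusted p-values cover all genes tested. Fold changes on this scale understate those of low genes. The script was tested on simulated data. Alternatives were other pseudocounts, filters and normalizations, fold and p thresholds, fits of the compared groups, a replicate block, edgeR 4.0.16 on recovered reads, voom, and leaving out each mouse. Library sizes without TMM factors were added after seeing the data.

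Members and lists were chosen with earlier results of these data known. The genes named are the members, Ptprc, up to 3 called genes with the largest absolute log2 fold change per B cell list and comparison, the 10 genes most like the members (mean of at least 5 CPM) and the nearest gene of each member. Some genes that this rule selects are not reported here. Exons and coordinates come from the GENCODE M21 annotation of GRCm38.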

Additional observations from a re-analysis of the deposited data

Results flagged for a closer look

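Among 32 sets of 4 mice (the 7 members and Ptprc in each group), 2 held a mouse far from the others by Dixon's ratio at its limit for 4 values, and chance gives about 1 in 20. Blk in the third Trem2-/- D0 mouse stood at 10.1 CPM against 20.1 to 20.8 CPM in the others (ratio 0.930). Ptprc in the fourth Trem2-/- D0 mouse stood at 418 CPM against 678 to 726 CPM (ratio 0.845).

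The log2 fold change of Ptprc with injury in Trem2-/- less that in WT mice was -1.10. This difference of effects passed an unadjusted p under 0.05 in limma and did not pass by adjusted p (0.579).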

How the results depend on the processing

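Leaving out each mouse in turn, between 6 and 7 members were called for injury in WT mice, 7 and 7 for injury in Trem2-/- mice, 0 and 3 for genotype at D0, and 6 and 7 for genotype at D7. The other alternatives gave the counts of the report for injury (6 and 7) and for genotype at D0 (0), and 6 or 7 for genotype at D7, except that an adjusted p under 0.05 left 0 there (2 with limma fitted to the compared groups alone). With limma fitted to the compared groups alone, an adjusted p under 0.05 left 5 members for injury in WT mice. Over the alternatives, 140 of 140 member values kept their direction and call for injury in Trem2-/- mice, 139 of 140 for injury in WT mice, 132 of 140 for genotype at D0 and 135 of 140 for genotype at D7. The members were chosen with the D7 genotype comparison known, so their counts there describe that choice and nothing is read from them. Of all 13173 genes, 480 were called there without WT D7 replicate 3 and 1366 with limma fitted to the compared groups alone. At D0 the direction of 3 members turned. Leaving out 1 mouse gave a range from -0.35 to 0.023 for Ms4a1 (highest without Trem2-/- D0 replicate 3), from -0.37 to 0.15 for Cd22 (highest without WT D0 replicate 2) and from -0.086 to 0.54 for Il21r (lowest without WT D0 replicate 1). The 5 changes at D7 were all for Cd22, whose log2 fold change was -0.59 in the report and -0.81 without WT D7 replicate 4. Mice with the same replicate number did not deviate together (correlations from -0.51 to 0.41, median 0.07), so the numbers were not taken to pair mice, and a replicate block gave 6, 7, 0 and 7 members called. Without TMM factors the median of all genes at D7 against D0 moved to -0.30 in WT and -0.31 in Trem2-/- mice, and members called were 6, 7, 0 and 6. With 4 mice per group, the standard errors of the members at D0 were 0.25 to 0.31 on the log2 scale, which limits the size of genotype difference that could be called there.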
